A study of Mus musculus with 10 samples.

Results

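The regions described here were the broad promoter peaks of coding transcripts: 946 of the 108253 histone mark peaks quantified in cultured mouse retina. A peak was taken when it was annotated as a promoter, lay at a protein-coding transcript and was at least 2000 bp wide. The 946 peaks belonged to 919 genes, which is 9.23% of the 9956 genes with a coding promoter peak, and they made up 8.52% of the 11100 coding promoter peaks. The other 10154 coding promoter peaks, all under 2000 bp, are called narrow below. Width chose the members, so nothing about their width is a finding.

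Retinas came from wild-type C57BL/6J mice at postnatal day 28, with the pigment epithelium removed, and each explant was kept for 48 h in Neurobasal-A medium holding either 5 mM or 25 mM glucose. CUT&Tag, which maps a histone mark by cutting and tagging DNA next to a bound antibody, was performed on dissociated cells (500000 in each assay) for lactylation of histone H3 lysine 18 (H3K18La, 3 libraries at each glucose level) and acetylation of lysine 27 (H3K27Ac, 2 libraries at each level). The labels place all 10 libraries in batch 1 and do not say which animals or cultures gave which library, so the p-values measure only the spread between libraries, which may be technical. The titles name H3K27Ac, whereas the protocol field of the same labels names an H3K9me3 antibody and pA-MNase where the study's methods name H3K27Ac and pA-Tn5. The mark is called H3K27Ac here, as in the titles.

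Histone lactylation is a modification whose supply is tied to lactate, the end product of glycolysis, and the retina is known for turning much of its glucose into lactate even in the presence of oxygen. H3K27 acetylation marks active promoters and enhancers. Signal of both marks usually flanks a transcription start site, and unusually wide domains of active marks are known from genes that define a cell type. Rods are by far the most abundant cells of the mouse retina, so the promoters of rod genes weigh heavily in a whole-retina profile.

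Most members were only moderately wider than the limit. The median width was 2306 bp (interquartile range 2134 to 2607.5 bp), 405 members were under 2250 bp, 84 were between 3000 and 4000 bp, and 7 were wider than 4000 bp. Of the 946 peaks, 936 (98.9%) contained the annotated start site, with a median of 824.5 bp on the upstream side and 1510.5 bp on the downstream side. In 677 of these 936 (72.3%) the longer side pointed into the gene, against 67.6% of the narrow peaks that contained their start site. The genes of the broad peaks carried more peaks in all, with a median of 5 per gene against 2 for genes of narrow peaks. The start sites of more than 1 coding gene lay inside 58 members (6.13%, narrow 8.20%), and signal there cannot be divided between the genes. Of the members named here, the peaks of Aldoa, Nlgn2, Rps14 and Fabp3 are such shared promoters, and their values belong to the peak and not to 1 gene. At the limit itself, Rxra, Apbb2 and Lmo1 had peaks of exactly 2000 bp with H3K18La log2 fold changes of 1.03, 1.54 and 1.50, and Tiparp (1999 bp), Borcs6 (1998 bp) and Ado (1997 bp) fell just outside with 1.16, 0.88 and 1.18.

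Base composition divided the members. The ratio of observed to expected CpG dinucleotides had a median of 0.613 in broad peaks, 0.679 in narrow peaks and 0.199 over all 108253 peaks, so broad promoter peaks were CpG-rich as a class but held a CpG-poor group. The 7 widest members had a median ratio of 0.243 and the 405 narrowest one of 0.636. The stretches below, each from 250 bases before to 30 bases after the start site in the RefSeq promoter table (GRCm38.p6), show both kinds and are printed because the members are compared by CpG content further on. Of the 946 members, 606 (64.1%) matched an entry of that table inside the peak. The capitals mark CpG dinucleotides. The first 5 belong to photoreceptor genes described further on, the next 2 to Hk1 and Foxo1, genes of glucose use and insulin signalling, and the last to Fabp3, whose H3K18La change was the lowest.
Nr2e3: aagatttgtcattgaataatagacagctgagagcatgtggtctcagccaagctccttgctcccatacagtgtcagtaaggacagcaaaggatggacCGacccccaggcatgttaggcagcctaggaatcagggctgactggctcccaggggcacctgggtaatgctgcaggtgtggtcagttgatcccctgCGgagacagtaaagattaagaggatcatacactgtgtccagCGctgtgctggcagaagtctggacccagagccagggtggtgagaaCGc
Prph2: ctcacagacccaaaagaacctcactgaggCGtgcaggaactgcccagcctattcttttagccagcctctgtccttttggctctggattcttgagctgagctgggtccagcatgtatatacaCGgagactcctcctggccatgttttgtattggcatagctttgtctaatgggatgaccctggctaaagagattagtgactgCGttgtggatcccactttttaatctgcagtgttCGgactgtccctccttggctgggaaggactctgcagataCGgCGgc
Pde6b: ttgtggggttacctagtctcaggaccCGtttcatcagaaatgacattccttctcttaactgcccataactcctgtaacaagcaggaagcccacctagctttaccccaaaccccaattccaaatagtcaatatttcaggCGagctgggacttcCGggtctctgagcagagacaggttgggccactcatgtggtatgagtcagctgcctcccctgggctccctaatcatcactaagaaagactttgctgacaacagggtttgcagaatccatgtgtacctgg
Grk1: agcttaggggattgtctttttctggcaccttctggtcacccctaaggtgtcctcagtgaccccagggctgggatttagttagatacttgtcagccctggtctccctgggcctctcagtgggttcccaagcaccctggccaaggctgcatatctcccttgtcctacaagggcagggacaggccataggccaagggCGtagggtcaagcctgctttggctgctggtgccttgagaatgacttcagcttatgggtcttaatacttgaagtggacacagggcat
Unc119: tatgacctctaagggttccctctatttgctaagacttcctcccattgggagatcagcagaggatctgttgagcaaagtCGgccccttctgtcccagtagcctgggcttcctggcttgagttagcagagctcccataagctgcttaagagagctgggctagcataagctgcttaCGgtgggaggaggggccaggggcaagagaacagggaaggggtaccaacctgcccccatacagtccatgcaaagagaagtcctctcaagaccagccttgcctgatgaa
Hk1: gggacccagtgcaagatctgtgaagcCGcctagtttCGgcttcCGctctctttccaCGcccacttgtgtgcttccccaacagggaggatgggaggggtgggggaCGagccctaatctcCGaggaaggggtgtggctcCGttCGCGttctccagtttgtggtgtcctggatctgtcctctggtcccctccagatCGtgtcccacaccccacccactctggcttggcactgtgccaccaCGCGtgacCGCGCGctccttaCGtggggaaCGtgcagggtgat
Foxo1: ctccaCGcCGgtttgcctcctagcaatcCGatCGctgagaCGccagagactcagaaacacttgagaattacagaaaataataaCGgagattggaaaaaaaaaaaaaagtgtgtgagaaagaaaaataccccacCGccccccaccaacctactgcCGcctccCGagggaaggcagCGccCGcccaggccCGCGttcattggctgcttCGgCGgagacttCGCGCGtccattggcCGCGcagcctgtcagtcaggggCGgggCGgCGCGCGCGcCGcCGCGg
Fabp3: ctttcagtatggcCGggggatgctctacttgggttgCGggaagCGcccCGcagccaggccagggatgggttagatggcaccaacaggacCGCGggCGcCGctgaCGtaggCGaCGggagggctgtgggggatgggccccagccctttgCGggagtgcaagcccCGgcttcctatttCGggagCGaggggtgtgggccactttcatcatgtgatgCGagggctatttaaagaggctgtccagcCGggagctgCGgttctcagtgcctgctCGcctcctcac
The photoreceptor stretches held 1 (Grk1), 2 (Unc119), 3 (Pde6b), 4 (Nr2e3) and 6 (Prph2) CpG dinucleotides in 280 bases, and those of Hk1, Fabp3 and Foxo1 held 17, 19 and 29. They lie at chr9:59950050-59950329 (Nr2e3, minus strand), chr17:46910228-46910507 (Prph2, plus), chr5:108388123-108388402 (Pde6b, plus), chr8:13404831-13405110 (Grk1, plus), chr11:78346460-78346739 (Unc119, plus), chr10:62340392-62340671 (Hk1, minus), chr3:52268087-52268366 (Foxo1, plus) and chr4:130308488-130308767 (Fabp3, plus).

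The depth per peak sets how firmly single promoters can be read. The values are RPKM, reads scaled to the length of the peak and to a total for the library, and whole reads were recovered from them. The totals behind the RPKM were 1358008 to 7424470 reads. For H3K18La the median member held 3 to 13 reads per library at 5 mM and 17 to 26 at 25 mM. For H3K27Ac it held 33 and 68 reads, then 158.5 and 245.5 at the higher glucose level. In a single H3K18La library at 5 mM up to 50 members held 0 reads, which in counting terms allows up to 3 reads each. The share of a library's reads that fell in peaks moved with glucose over the whole series, from 11.8 to 12.01% up to 31.2 to 35.0% for H3K18La and from 21.1 and 31.5% up to 56.5 and 69.5% for H3K27Ac. A change of mark at many peaks and a change of background between the libraries cannot be told apart by RPKM, and in tissue of mixed cells neither can fewer cells of a type and less mark per cell. The median log2 fold change of all peaks, 0.76 for H3K18La and 0.58 for H3K27Ac, is therefore given beside the values of the members.

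Rod markers were checked first, since the labels give retina. All 8 rod marker genes had a promoter peak and 5 of the 8 peaks were broad. Their summed H3K18La signal was 13.5 to 17.0 RPKM at 5 mM and 64.6 to 156 RPKM at 25 mM, against 3.36 to 7.29 and 9.68 to 12.7 RPKM over 5 of 6 Müller glia markers. The Müller glia H3K27Ac sums were 12.9 and 14.9 RPKM at 5 mM and 28.8 and 34.4 RPKM at 25 mM, with 2 of 5 called. Of 5 cone markers 4 had a promoter peak, all narrow. Their H3K18La sum was 4.02 to 7.11 RPKM at 5 mM and 11.7 to 16.2 RPKM at 25 mM with a median log2 fold change of 1.30, and 1 of the 4, Opn1mw, passed. Opn1sw, the gene of the short-wavelength cone pigment, had -0.56 (limma adjusted p = 0.574). For H3K27Ac the cone sum went from 4.73 and 6.99 to 12.3 and 12.35 RPKM, with 1 of 4 called. The 5 bipolar cell markers, none of them broad, had H3K27Ac sums of 15.0 and 28.8 RPKM at 5 mM and 73.6 and 82.6 RPKM at 25 mM with 4 of 5 called, and H3K18La sums of 4.96 to 14.9 and 14.5 to 19.6 RPKM with 1 of 5 called. Of 4 microglia markers, Cx3cr1, P2ry12 and Tmem119 had no promoter peak and C1qa had 0.528 to 1.66 RPKM of H3K18La at 5 mM and 1.94 to 3.87 RPKM at 25 mM. Of 4 pigment epithelium markers, Rpe65, Ttr and Pmel had none and Best1 had 0 to 1.43 RPKM and 1.24 to 2.04 RPKM. Neither C1qa nor Best1 passed for either mark, although their log2 fold changes for H3K18La, 1.03 and 1.06, were near the median of the members. Amacrine markers (2 of 4 with a promoter peak) had H3K18La sums of 1.597 to 2.615 RPKM at 5 mM and 6.535 to 9.695 RPKM at 25 mM. Their H3K27Ac sums were 6.65 and 8.85 RPKM, then 18.5 and 39.1 RPKM. Ganglion cell markers (2 of 4) had H3K18La sums of 0.524 to 2.42 RPKM, then 1.11 to 1.96 RPKM. The horizontal cell marker Onecut1 had 0 to 0.790 RPKM, then 0.528 to 0.7235 RPKM. Neither of the last 2 sets had a call for either mark.

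The main comparison asked how the marks at these promoters differed between 25 mM and 5 mM glucose. Both marks were higher at 25 mM at most broad promoters. Over all members together, H3K18La was 1.35, 1.22 and 1.21 RPKM in the 3 libraries at 5 mM and 5.47, 3.85 and 3.47 RPKM at 25 mM. The group means were 1.26 ± 0.0776 and 4.26 ± 1.06 RPKM (SD, n = 3), a ratio of 3.38. H3K27Ac was 3.74 and 5.71 RPKM at 5 mM and 17.98 and 11.8 RPKM at 25 mM, with means of 4.73 ± 1.39 and 14.9 ± 4.37 RPKM (SD, n = 2) and a ratio of 3.15. The groups did not overlap for either mark, and replicate 1 at 25 mM was the highest library of each mark.

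**Figure D1:**
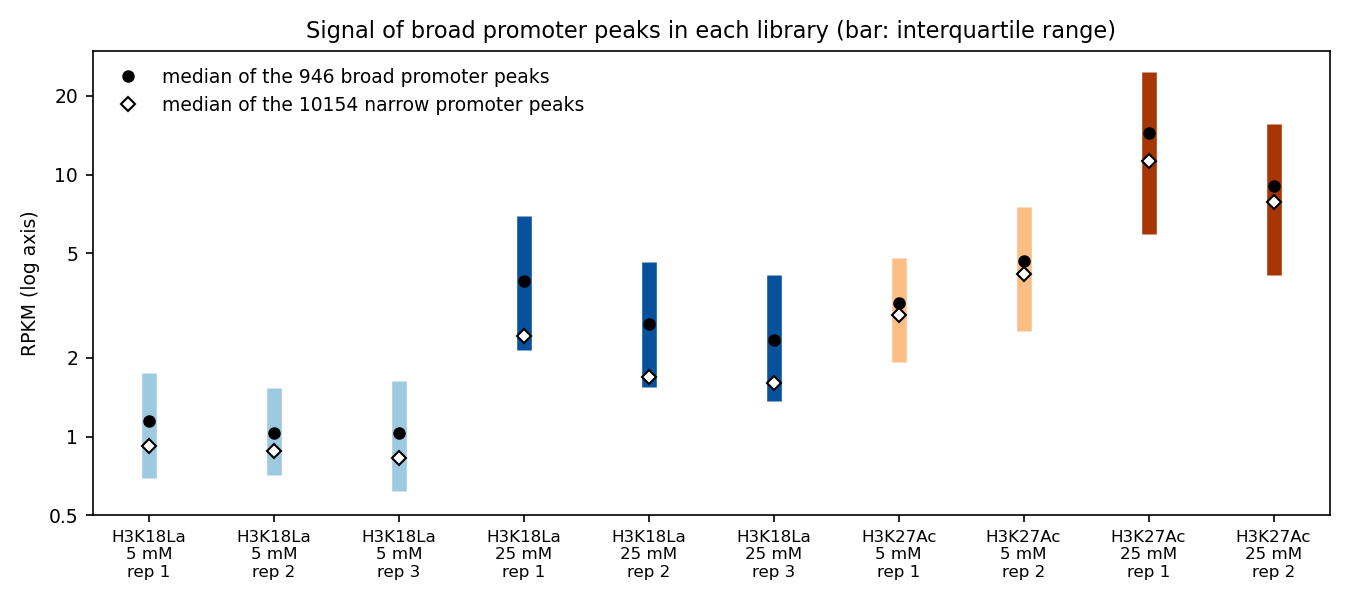
RPKM (log axis) of the broad promoter peaks in each of the 10 libraries, with a filled circle at the median of the 946 peaks, a bar for the interquartile range and an open diamond at the median of the 10154 narrow promoter peaks. The medians of the broad peaks lie between 1.03 and 1.15 in the H3K18La libraries at 5 mM and between 2.34 and 3.92 at 25 mM, and above the diamond in every library.

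Promoter by promoter, H3K18La rose at 366 members (38.7%) and fell at 0, by limma with Benjamini-Hochberg adjustment over all peaks at a threshold of 0.05. Over all peaks 20.6% rose and 0.117% fell, and 17.3% of narrow promoter peaks rose. H3K27Ac rose at 555 members (58.7%) and fell at 0, against 16.4% and 0.179% of all peaks and 46.1% of narrow promoter peaks that rose. At an unadjusted p under 0.05, 551 of the 946 members were higher for H3K18La and 752 for H3K27Ac. Of all 108253 peaks, 35738 and 35481 had such a p in either direction. At that p 0 members were lower for either mark, and voom also called 0 lower. The median log2 fold change was 1.15 for H3K18La (interquartile range 0.78 to 1.61, narrow 0.86) and 1.38 for H3K27Ac (1.00 to 1.69, narrow 1.22). The change exceeded 2-fold on the log2(RPKM + 0.5) scale at 576 members for H3K18La (60.9%) and 709 for H3K27Ac (74.9%). The shares were 39.0 and 29.0% of all peaks, and 41.5 and 62.9% of narrow promoter peaks.

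These calls rest on the scaling and, for H3K27Ac, on the settings of the fit. When the reads in peaks were taken as the total, 0 members passed for either mark, and the medians were 0.10 and 0.21. At an unadjusted p under 0.05 there were 79 and 179 of the 946 members, beside 10505 and 15698 of all 108253 peaks. For H3K18La the split of positive to negative changes went from 932 and 14 to 537 and 409. For H3K27Ac it went from 935 and 11 to 649 and 297. The 555 H3K27Ac calls became 0 with a pseudocount of 0.1 and 0 without robust moderation, settings that called 0 of all peaks. They became 1 at a threshold of 0.01 (all peaks 0.079%) and 211 with a replicate block (22.3%, all peaks 7.72%). For H3K18La the counts without each library in turn were 198 to 344. The lowest was without replicate 1 at 25 mM (20.9%, all peaks 13.1%), next 217 without replicate 2 at 25 mM (22.9%, all peaks 11.2%).

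Without a fitted model, the groups separated at most members. All 3 H3K18La libraries at 25 mM lay above all 3 at 5 mM at 716 members (75.7%, all peaks 36.6%) and below them at 0 (all peaks 0.821%). Both H3K27Ac libraries at 25 mM lay above both at 5 mM at 889 members (94.0%, all peaks 53.0%) and below at 2 (all peaks 6.37%). Those 2, Rassf10 and Fzd1, are named because they stand apart in direction, and neither passed the test.

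Both marks rose at 285 members (30.1%, all peaks 8.16%), which is 77.9% of the members called for H3K18La and 51.4% of those called for H3K27Ac. A further 81 members passed for H3K18La alone, 270 for H3K27Ac alone and 310 for neither. Such a split does not show that the marks responded differently. The interaction of glucose and mark, fitted by limma over all 10 libraries, passed at 0 members (0.0% of all peaks), with 10 members and 4988 of all peaks at an unadjusted p under 0.05, and voom also gave 0. Across the 946 promoters the 2 log2 fold changes had a Pearson r of 0.52 and a Spearman rho of 0.51. That is a description across peaks of the same tissue, which share gene and base composition and are not replicates.

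**Figure D2:**
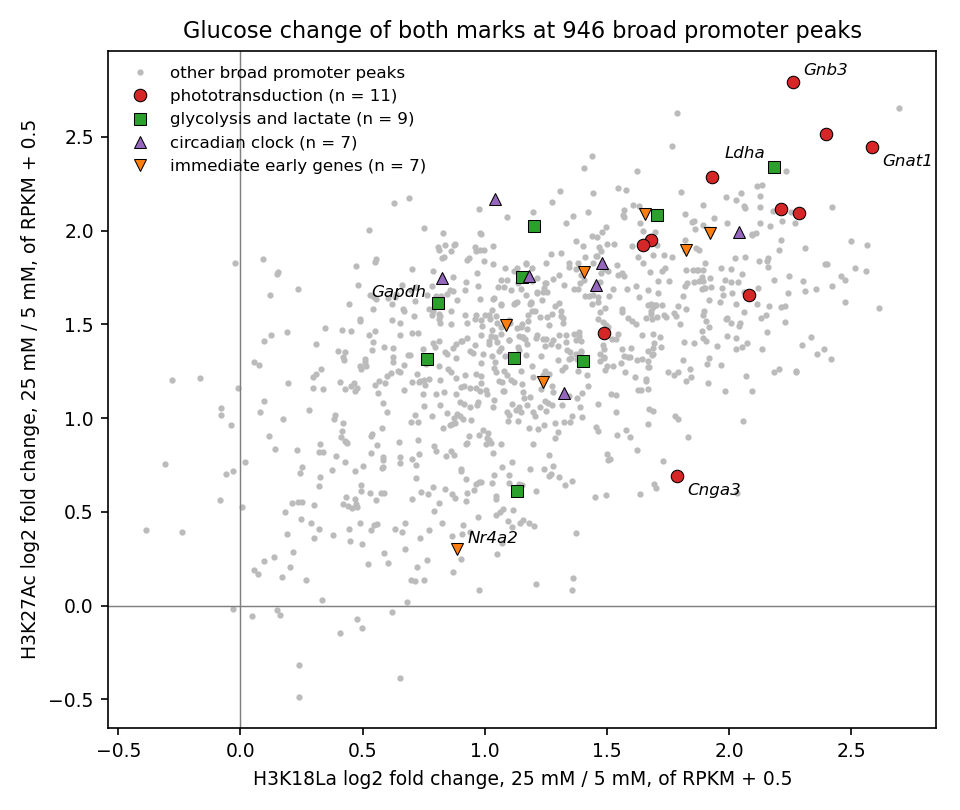
Log2 fold change (25 mM over 5 mM, of RPKM + 0.5) of H3K18La on the horizontal axis and H3K27Ac on the vertical axis, each point 1 of the 946 broad promoter peaks, with 4 gene lists in colour. Phototransduction genes lie toward the upper right, Cnga3 apart from them with 1.79 and 0.69, and Nr4a2 low on the vertical axis with 0.89 and 0.30.

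A measure that no scale factor can move is the ratio of signal per base in broad to that in narrow promoter peaks of the same library. For H3K18La it was 1.20, 1.20 and 1.18 at 5 mM and 1.56, 1.59 and 1.53 at 25 mM (means 1.19 ± 0.0120 and 1.56 ± 0.0289, SD, n = 3), a change of 1.31 times. For H3K27Ac it was 1.05 and 1.12 at 5 mM and 1.21 and 1.18 at 25 mM (1.08 ± 0.0453 and 1.20 ± 0.0199, SD, n = 2), a change of 1.10 times. No library at 25 mM fell within the range of its 5 mM group. The mean difference in log2(RPKM + 0.5) between broad and narrow peaks went from 0.25 ± 0.05 to 0.57 ± 0.08 for H3K18La and from 0.19 ± 0.04 to 0.38 ± 0.08 for H3K27Ac. Unlike the ratio, this difference depends on the pseudocount and so on scale. The H3K18La step of 0.32 was 0.22 with a pseudocount of 0.1, and the H3K27Ac step stayed at 0.19. The members were chosen by width with results known, and peak calling ties width to signal, so no test is given. A background that adds the same signal per base to every peak pulls this ratio toward 1, and the share of reads outside peaks was higher at 5 mM. Its part in the change was not tested.

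**Figure D3:**
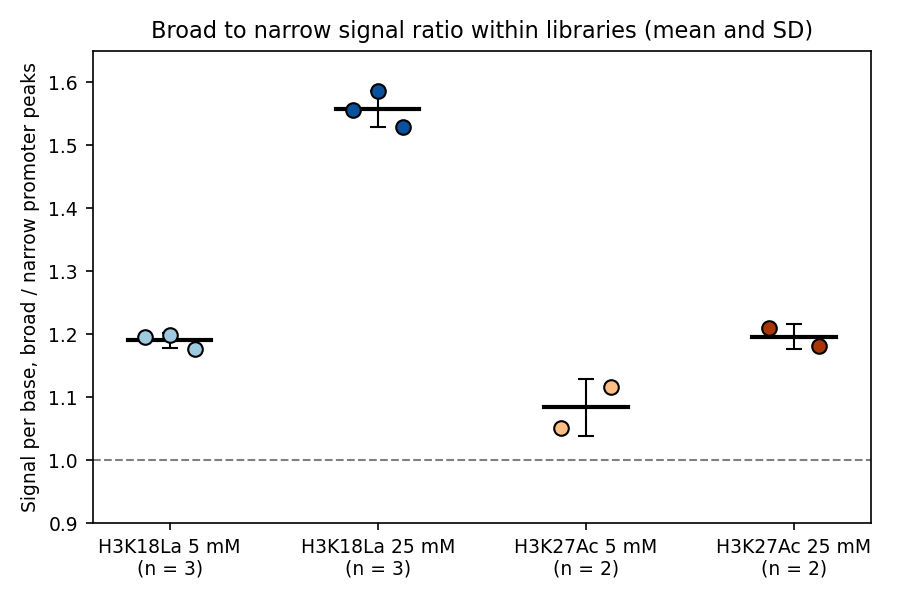
Ratio of pooled signal per base in broad to narrow promoter peaks within each library (points), with the mean and SD of each group, for H3K18La (n = 3 per group) and H3K27Ac (n = 2 per group). The H3K18La points sit between 1.18 and 1.20 at 5 mM and between 1.53 and 1.59 at 25 mM, a wider step than for H3K27Ac.

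The 6 widest peaks included those of Elfn1, Nr2e3, Ankrd33b, Ptprg and Plpp2. Elfn1, a synaptic adhesion protein, had the widest of all, 5806 bp at chr5:139906592-139912397, of which 4454 bp lay downstream of the start site. Its H3K18La was 1.63, 1.69 and 1.40 RPKM at 5 mM and 11.8, 8.60 and 8.07 RPKM at 25 mM. The log2 fold change was 2.25 for H3K18La (SE 0.32, limma adjusted p = 0.000416) and 2.10 for H3K27Ac (SE 0.48, limma adjusted p = 0.0145). The 3 libraries at 25 mM lay far above those at 5 mM and replicate 1 was the highest. Nr2e3, a nuclear receptor that represses cone genes in rods, had a peak of 4706 bp at chr9:59948856-59953561 that reached 3444 bp upstream and held the CpG-poor stretch printed above. Its H3K18La was 2.82, 2.62 and 1.41 RPKM at 5 mM and 20.9, 13.7 and 11.2 RPKM at 25 mM (log2 fold change 2.50, SE 0.33, limma adjusted p = 0.000296). Its H3K27Ac was 9.09 and 15.9 RPKM at 5 mM and 60.4 and 37.7 RPKM at 25 mM (1.94, SE 0.49, limma adjusted p = 0.0184). Both marks rose there without overlap between the groups.

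Not every wide peak passed. Ptprg, a receptor tyrosine phosphatase with a peak of 4441 bp, had H3K18La values of 0.427, 0.434 and 0.497 RPKM at 5 mM and 0.916, 0.886 and 0.835 RPKM at 25 mM. The groups did not overlap, but on 3 to 16 reads per library the change of 0.53 (SE 0.55) did not pass (limma adjusted p = 0.537), nor did that of H3K27Ac (0.90, limma adjusted p = 0.189). Ankrd33b (4508 bp) rose by 2.11 and 1.99 for the 2 marks. Plpp2, a lipid phosphatase (4316 bp), rose by 1.54 for H3K18La and had a change of 1.12 for H3K27Ac that did not pass (limma adjusted p = 0.103).

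Phototransduction genes carry the light signal from visual pigment to membrane channel. Broad promoters were found at 11 of the 26 genes of the list with a coding promoter peak (42.3%), beside 9.23% of all such genes. H3K18La rose at 11 of 11 members and H3K27Ac at 10 of 11, the 11th H3K18La call, Cnga3, being lost under several settings given with its values, beside 38.7 and 58.7% of all members, with median log2 fold changes of 2.08 and 2.09 beside 1.15 and 1.38 over all members. With the reads in peaks as the total the medians were 0.93 and 0.85, positive in 11 and 10 of 11, and 0 passed. Without replicate 1 at 25 mM, 11 passed for H3K18La and 0 for H3K27Ac, with medians of 1.95 and 1.80. The last fit has a lone H3K27Ac library at 25 mM and called 0 of all 108253 peaks, so that its 0 says nothing of these genes. The rod marker sums moved the same way, as did those of cones, Müller glia and amacrine cells, and C1qa. For H3K27Ac so did those of bipolar cells, and Best1. The ganglion and horizontal cell sums overlapped between the glucose levels in both marks. The part of these cell types in the changes was not tested. The list was drawn up with results of these data known and is a description.

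Among the G protein subunits, Gnat1, the rod transducin alpha subunit, had H3K18La values of 0.696, 1.04 and 0.360 RPKM at 5 mM and 12.7, 5.78 and 3.63 RPKM at 25 mM (log2 fold change 2.59, SE 0.48, limma adjusted p = 0.00195). The values at 5 mM rested on 1 to 11 reads. Its H3K27Ac was 5.32 and 9.06 RPKM at 5 mM and 51.2 and 31.3 RPKM at 25 mM (2.44, SE 0.48, limma adjusted p = 0.0115). Gnb3, the transducin beta subunit of cones, had the largest H3K27Ac change of all members, from 2.67 and 4.47 RPKM to 41.2 and 17.7 RPKM (2.79, SE 0.48, limma adjusted p = 0.00877). Its H3K18La went from 2.63, 2.80 and 1.89 RPKM to 20.4, 12.7 and 9.36 RPKM (2.26, SE 0.33, limma adjusted p = 0.000447). Gngt1, the rod transducin gamma subunit, changed less, by 1.49 and 1.45, and both passed.

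The enzymes of the cascade followed. Pde6b, a catalytic subunit of the rod phosphodiesterase, went from 2.79, 1.42 and 1.89 RPKM of H3K18La to 16.6, 10.5 and 8.79 RPKM (2.29, SE 0.34, limma adjusted p = 0.000525), over a promoter with 3 CpG dinucleotides in the printed stretch. Rgs9, which speeds the shut-off of transducin, rose by 1.93 for H3K18La and 2.29 for H3K27Ac. Grk1, the kinase that quenches activated visual pigment, was among the 5 strongest members for H3K18La, at 4.48, 4.33 and 4.93 RPKM at 5 mM and 25.3, 18.6 and 19.7 RPKM at 25 mM. The replicates within each group were close. The remaining members described here, Pde6g (the inhibitory phosphodiesterase subunit), Slc24a1 (the rod sodium, calcium and potassium exchanger), Gucy2e (a guanylate cyclase) and Cnga3 (a cone channel subunit), lie outside the naming rule and were picked after their values were seen. The first 3 passed for both marks. Cnga3 held 0.451, 0.276 and 0 RPKM of H3K18La at 5 mM, or 0 to 3 reads, and 0.969, 2.69 and 2.73 RPKM at 25 mM (1.79, SE 0.58, limma adjusted p = 0.0426). The H3K18La Cnga3 call was lost with a pseudocount of 0.1 (limma adjusted p = 0.0953), when peaks under a mean of 1 RPKM were left out (0.0512), without robust moderation (0.0682), with a replicate block (0.0761), with changes centred on the median of all peaks (0.293) and when any of 4 libraries was left out (0.0789 to 0.172). It was the member of the list whose H3K27Ac change, 0.69, did not pass (limma adjusted p = 0.318).

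**Figure D4:**
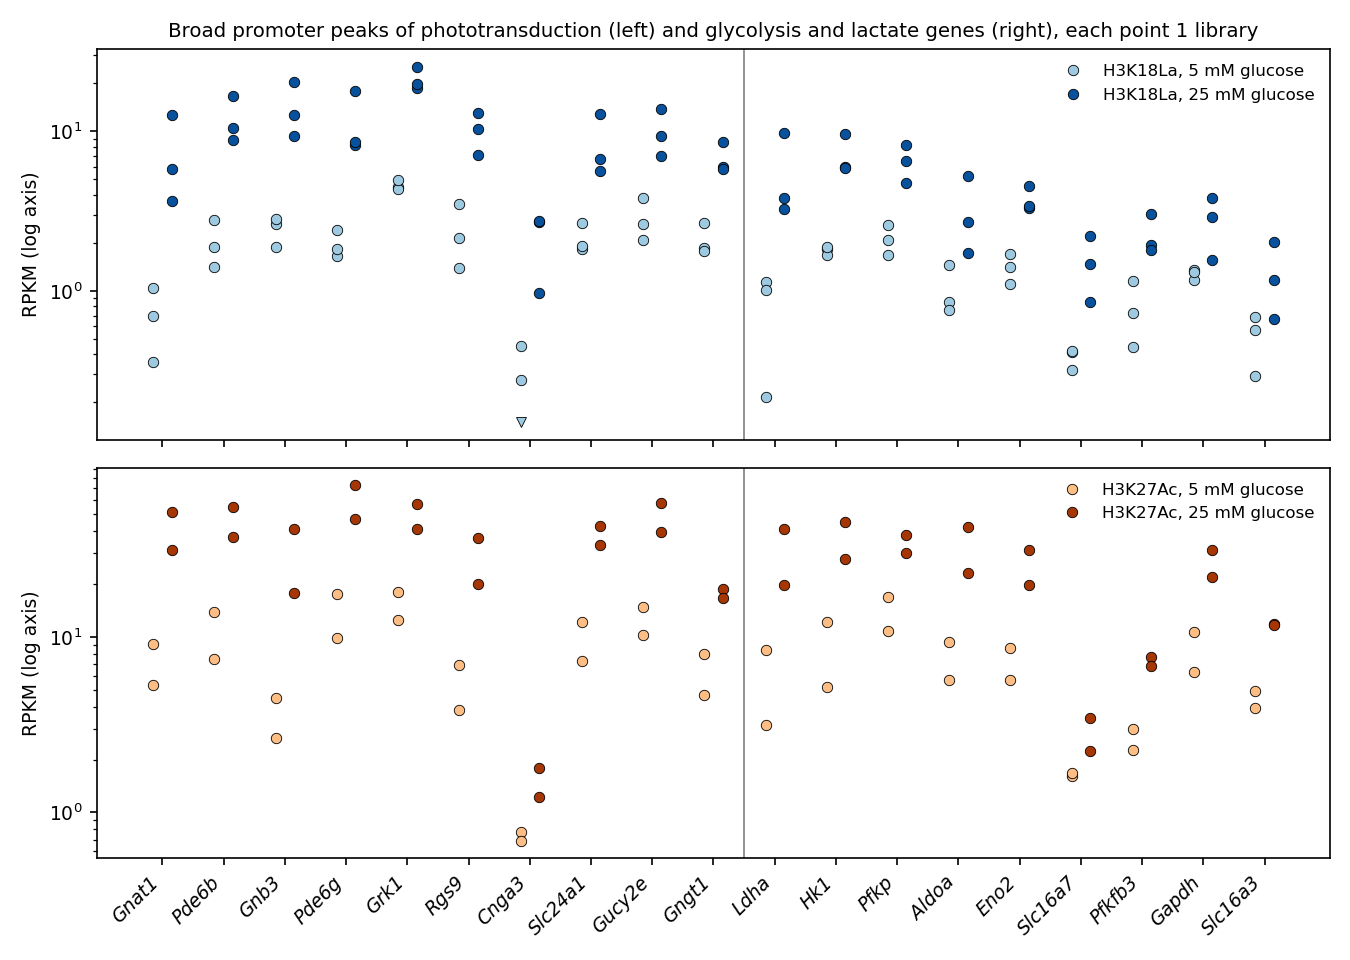
RPKM (log axis) at the broad promoters of 10 phototransduction genes (left of the line) and the 9 genes of glycolysis and lactate (right), H3K18La above and H3K27Ac below, each point 1 library and a downward triangle at the bottom a library at 0. The 25 mM points lie above the 5 mM points at most genes, with wide gaps at Gnat1 and Gnb3 and an H3K18La gap at Gapdh from 1.35 to 1.56 RPKM only.

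The largest changes of all were at Unc119 and, for H3K27Ac, Gnb3. Unc119 binds the lipid tail of transducin and carries it in photoreceptors. Its H3K18La was 1.22, 1.41 and 1.58 RPKM at 5 mM and 23.0, 10.8 and 6.53 RPKM at 25 mM (log2 fold change 2.69, SE 0.41, limma adjusted p = 0.000565). Its H3K27Ac was 8.35 and 13.1 RPKM at 5 mM and 94.6 and 49.5 RPKM at 25 mM (2.65, SE 0.50, limma adjusted p = 0.0115). The replicates at 25 mM differed by a wide margin. That each lay above every library at 5 mM was a condition of being named among the largest rises, as was passing the test. Prph2, which shapes the rim of outer segment discs, rose by 1.79 for H3K18La and, from 4.15 and 6.98 RPKM to 48.1 and 26.8 RPKM, by 2.63 for H3K27Ac (SE 0.48, limma adjusted p = 0.0113). After Unc119 and besides Gnat1, the largest H3K18La changes were at Adgrg3, an adhesion receptor (2.61), Amer2, a regulator of Wnt signalling (2.57), Cnot6l, a deadenylase of the CCR4-NOT complex (2.56), and Epb41l2, a membrane skeleton protein (2.52), all with limma adjusted p of 0.00167 or less. Mamld1, named for its H3K27Ac change, went from 2.31 and 3.87 RPKM to 24.6 and 14.1 RPKM (2.45, SE 0.45, limma adjusted p = 0.0113) and rose by 1.76 for H3K18La. Adgrg3 was the least even of the H3K18La group at 5 mM, with 2.94, 2.63 and 0.305 RPKM.

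The strongest H3K18La promoter at 25 mM was Frmpd1, at 38.6, 21.5 and 18.3 RPKM against 5.44, 3.95 and 3.67 RPKM at 5 mM. Agpat3, an acyltransferase of phospholipid synthesis, and Frmpd1 were among the 5 strongest members for both marks. Agpat3 held 5.74, 4.27 and 2.15 RPKM of H3K18La at 5 mM and 23.8, 17.4 and 17.3 RPKM at 25 mM. Fam53b and BC034090 completed the 5 for H3K18La, at 22.04, 18.7 and 16.7 RPKM and at 24.7, 20.5 and 17.0 RPKM at 25 mM. Guk1, a guanylate kinase, and Syngr1, a synaptic vesicle protein, joined them for H3K27Ac, at 76.2 and 60.3 RPKM and at 80.4 and 55.9 RPKM at 25 mM. Unc119, described above, completed the 5 for H3K27Ac. These genes, Grk1 and Unc119 included, were chosen by their level at 25 mM, which favours a high value there. Their direction against 5 mM is therefore not read as a result.

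Transcription factors of photoreceptors were broad at 2 of 15 genes of that list (13.3%, all genes with a coding promoter peak 9.23%). Nr2e3 rose as described, and Thrb, the thyroid hormone receptor of cones, had changes of 0.94 and 0.99 that did not pass (limma adjusted p = 0.144 and 0.117). Of the other retinal transcription factors 2 of 22 (9.09%) were broad. Prdm8 rose by 1.86 and 2.05, and Zeb2 had changes of 1.07 and 0.86 that did not pass (limma adjusted p = 0.184 and 0.146).

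Genes of glycolysis and lactate handling had broad promoters at 9 of 25 genes (36.0%). H3K27Ac rose at 7 of the 9 and H3K18La at 3, beside 58.7 and 38.7% of all members, with medians of 1.61 and 1.15 beside 1.38 and 1.15. Without replicate 1 at 25 mM, H3K18La passed at 1 of the 9, with a median of 0.93. With the reads in peaks as the total the H3K18La median was 0.10, positive at 6 of 9, and that of H3K27Ac 0.38, positive at 8 of 9. Hk1, the hexokinase of the first step, had H3K18La of 1.83, 1.68 and 1.89 RPKM at 5 mM and 9.65, 6.01 and 5.86 RPKM at 25 mM (1.70, SE 0.34, limma adjusted p = 0.00308), and H3K27Ac of 5.21 and 12.1 RPKM at 5 mM and 45.2 and 27.9 RPKM at 25 mM (2.08, SE 0.50, limma adjusted p = 0.0156). Its groups did not overlap in either mark. The peak at Aldoa, an aldolase, which also held another gene's start site, had H3K18La of 1.46, 0.857 and 0.754 RPKM at 5 mM and 5.21, 2.69 and 1.73 RPKM at 25 mM, a change of 1.20 that did not pass (limma adjusted p = 0.0968), while H3K27Ac there rose by 2.03. Gapdh had an H3K18La change of 0.81 that did not pass (limma adjusted p = 0.227) and an H3K27Ac rise of 1.61. Pfkfb3, which makes the activator of phosphofructokinase, had 1.12 (limma adjusted p = 0.127) and rose by 1.32 in H3K27Ac. Ldha, the lactate dehydrogenase subunit that favours lactate formation, is outside the naming rule and was picked after its values were seen: its H3K18La was 0.216, 1.14 and 1.01 RPKM at 5 mM, on 1 to 13 reads, and 9.74, 3.25 and 3.84 RPKM at 25 mM (2.19, SE 0.51, limma adjusted p = 0.00766). That these genes passed more often for H3K27Ac does not show a difference between the marks, since the interaction passed at 0 members.

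Of genes of glucose sensing and insulin signalling, 6 of 20 were broad, and 3 rose for H3K18La and 5 for H3K27Ac, beside 38.7 and 58.7% of all members. Without replicate 1 at 25 mM, H3K18La passed at 1 of the 6, with a median of 1.03 in place of 1.39. With the reads in peaks as the total 0 passed for either mark, and 5 and 5 of the 6 changes were positive. Foxo1, a transcription factor held out of the nucleus by insulin signalling, had H3K18La of 0.161, 0.589 and 0.250 RPKM at 5 mM and 5.18, 2.50 and 2.17 RPKM at 25 mM (2.13, SE 0.52, limma adjusted p = 0.0105). Its promoter was CpG-rich, unlike those of the photoreceptor genes above, and the 5 mM values rested on 1 to 9 reads. Foxo3 rose by 1.60 and 2.13. Irs2, an insulin receptor substrate, rose for H3K27Ac (1.34) and had 1.17 for H3K18La (limma adjusted p = 0.119), and the kinase Akt1 had 1.09 and 1.03, neither of which passed (limma adjusted p = 0.179 and 0.0820).

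Clock genes were broad at 7 of 20 genes (35.0%), with 4 rises for H3K18La and 6 for H3K27Ac, beside 38.7 and 58.7% of all members. Rora, a nuclear receptor that activates the clock gene Arntl, rose by 2.04 and 1.99, and Nr1d1, which represses it, by 1.45 and 1.71. Dbp, a clock output factor, and Per2, a clock repressor, rose for H3K27Ac by 2.17 and 1.75, with H3K18La changes of 1.04 and 0.82 that did not pass (limma adjusted p = 0.0908 and 0.180). Immediate early genes were broad at 7 of 24 genes (29.2%), with 5 and 6 rises, again beside 38.7 and 58.7% of all members. Klf10 rose by 1.92 and 1.99, Jun by 1.41 and 1.78 and Atf3 by 1.24 and 1.19. Nr4a2 passed for neither mark, at 0.181, 0.956 and 0.281 RPKM of H3K18La against 1.55, 0.750 and 1.41 RPKM, with groups that overlapped (limma adjusted p = 0.309). With the reads in peaks as the total, 4 and 6 of the 7 clock genes and 6 and 6 of the 7 immediate early genes kept a positive change, and 0 passed in either list. Without replicate 1 at 25 mM, H3K18La passed at 1 of the 7 clock genes and at 1 of the 7 immediate early genes, with medians of 1.09 and 1.11 in place of 1.33 and 1.41.

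The other lists held few members. Of histone acylation enzymes, 2 of 19 genes (10.5%) were broad: the deacetylase Hdac9 rose by 1.59 and 1.54, and the acetyltransferase Kat6b rose by 1.68 for H3K27Ac and had 1.11 for H3K18La (limma adjusted p = 0.0672). Of ribosomal protein genes 1 of 37 (2.70%) was broad, Rps14, in a peak shared with another start site, with changes of 1.08 and 1.15 that did not pass (limma adjusted p = 0.174 and 0.0616). Of synapse genes 3 of 25 were broad. Cplx3, a complexin of retinal ribbon synapses, went from 2.19, 3.30 and 2.67 RPKM of H3K18La to 12.6, 11.4 and 13.9 RPKM (2.04, SE 0.28, limma adjusted p = 0.000349), with replicate 3 and not replicate 1 the highest at 25 mM. Shank2, a scaffold of the postsynaptic side, had 1.53, 0.714 and 0.681 RPKM at 5 mM and 0.706, 1.25 and 0.935 RPKM at 25 mM, a change of 0.02 (limma adjusted p = 0.993) with overlapping groups. The peak at Nlgn2, a synaptic adhesion protein, also a shared one, rose by 1.55 for H3K27Ac and had 0.92 for H3K18La (limma adjusted p = 0.178).

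At the low end no promoter passed as lower. The peak at Fabp3, a fatty acid binding protein, shared with another gene's start site, had the lowest H3K18La change, with 1.57, 0.820 and 1.74 RPKM at 5 mM and 2.40, 0.929 and 0.159 RPKM at 25 mM (-0.39, SE 0.61, limma adjusted p = 0.699). Its values at 25 mM spanned those at 5 mM. Auts2 followed with -0.31 and the H3K79 methyltransferase gene Dot1l with -0.28, on 2 to 5 reads in each library for Dot1l. For H3K27Ac the lowest was Fzd1, a Wnt receptor, at 1.23 and 1.01 RPKM at 5 mM and 0.537 and 0.781 RPKM at 25 mM (-0.49, SE 0.48, limma adjusted p = 0.521), then Fstl4 with -0.39 and Rassf10 with -0.32.

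Among the members, the H3K18La change on the log2(RPKM + 0.5) scale was higher in CpG-poor peaks, which also held more signal at 5 mM. The values by width are given as a description only, since width chose the members. From the class of 2000 to 2250 bp to that above 4000 bp the median log2 fold change was 1.08, 1.16, 1.14, 1.43 and 2.11, and the share that rose 31.6, 39.7, 40.4, 61.9 and 85.7%, the last class holding 7 peaks. For H3K27Ac the medians were 1.36, 1.40, 1.36, 1.46 and 1.94. With members ranked by CpG ratio and cut into 3 classes of equal size, the H3K18La median was 1.36 in the CpG-poor class, 1.12 in the middle and 1.07 in the CpG-rich class, with 54.9, 35.8 and 25.4% called. The classes also differed in level: the median H3K18La at 5 mM was 1.40, 1.005 and 0.946 RPKM, and at 25 mM 4.22, 2.76 and 2.53 RPKM. Since log2(RPKM + 0.5) understates the change of weaker peaks, these levels bear on the order of the classes, and their part in it was not tested. The H3K27Ac medians ran the other way, 1.31, 1.41 and 1.43, with 52.4, 61.4 and 62.2% called. Without replicate 1 at 25 mM the H3K18La order stayed (1.28, 0.95 and 0.86), whereas that of H3K27Ac turned, with 1.17 in the CpG-poor and 1.04 in the CpG-rich class, so that its direction rested on 1 library. Spearman's rho over the 946 members was 0.15 for width and -0.20 for CpG ratio with H3K18La, and 0.0752 and 0.0823 with H3K27Ac. These describe peaks that share libraries. The 2 widest classes also had the lowest median CpG ratios, 0.415 and 0.243, beside 0.586 to 0.636 in the others, though single wide members such as Ptprg (0.656) were CpG-rich.

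**Figure D5:**
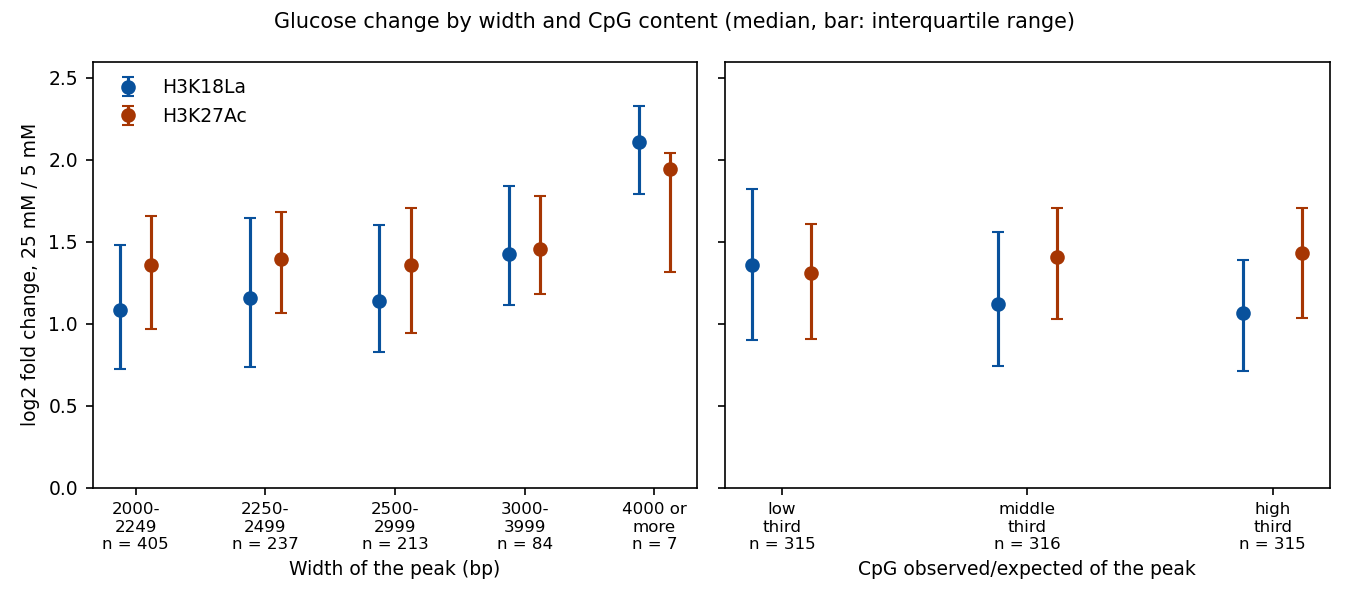
Median log2 fold change (25 mM over 5 mM, bars for the interquartile range) of both marks by width class on the left and by class of observed to expected CpG on the right, with the number of peaks under each class. The H3K18La medians climb to 2.11 in the widest class of 7 peaks and go down from 1.36 to 1.07 with CpG content, while those of H3K27Ac go from 1.31 to 1.43.

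Short sequence motifs were counted on both strands from 250 bases before to 50 bases after the start site in GRCm38. TAATCC, the core that the photoreceptor factor CRX binds, stood in 73 members (7.72%), against 7.03% of all coding promoter peaks. TGCTGA, part of the element bound by the rod factor NRL, stood in 15.1% (all 16.2%), the GC box GGGCGG in 64.7% (all 60.0%) and the E-box CACGTG in 8.77% (all 9.54%). Among members with TAATCC the H3K18La median was 1.46 and 45 of 73 (61.6%) rose, beside 1.14 and 36.8% of those without it. For H3K27Ac the medians were 1.36 and 1.38, with 58.9 and 58.7% called. The same motif in narrow promoters went with H3K18La medians of 0.98 with and 0.86 without it. With TGCTGA 47.6% rose for H3K18La and without it 37.1%, with the GC box 33.8% and without it 47.6%, and with the E-box 38.6% and without it 38.7%. The H3K27Ac shares for these 3 motifs were 57.8 to 60.1%. A match describes letters in a window and is no evidence of binding.

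Signal away from the promoter was compared for the same genes. Of the 919 genes, 735 also had peaks outside promoters, 8382 in all. Their median log2 fold changes were 1.00 for H3K18La and 0.75 for H3K27Ac (all peaks 0.76 and 0.58). Of these peaks 31.4% and 18.7% rose, beside 20.6% and 16.4% of all peaks. Across these 735 genes the promoter's change and the median change of the gene's other peaks had a Spearman rho of 0.461 for H3K18La and 0.516 for H3K27Ac, a description over genes measured in the same libraries.

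Replicate 1 at 25 mM stood above the other libraries of its group at these promoters in both marks. Its median excess on the log2 scale was 0.50 for H3K18La and 0.55 for H3K27Ac, against 0.00 and 0.04 over all peaks, and it was the highest library at 714 members (75.5%, all peaks 40.5%) and at 889 (94.0%, all peaks 58.2%). Without it the H3K18La median was 0.99 (narrow 0.74, all peaks 0.77) with 198 members called (20.9%, all peaks 13.1%), and the H3K27Ac median 1.12 (narrow 1.00, all peaks 0.59). That H3K27Ac fit, with a lone library at 25 mM, called 0 of all peaks.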

How the data were processed

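CUT&Tag libraries of P28 mouse retinal explants were grouped by the sample labels. The authors aligned reads to GRCm38 with nf-core/cutandrun, called peaks with MACS, annotated them with ChIPseeker 1.34.1, with promoters from -1000 to 500 bp of a start site, counted reads with csaw and deposited RPKM, that is, reads per kilobase of peak relative to a library total. Whether their window-based normalization factors are part of that total is not stated. By their methods, the peaks were H3K18La consensus peaks merged over 3 ages of developing retina. A second deposited table holds the authors' own fold changes and p-values and was not used. All RPKM values were whole multiples of 1 read (tolerance 0.01 read), so depth per peak is known.

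Each mark was fitted over all 108253 peaks with limma 3.58.1 in R 4.3.3 (lmFit, eBayes with trend and robust moderation) on log2(RPKM + 0.5), which understates changes of weak peaks. This replaced the study's quasi-likelihood count model because the unit is RPKM. Values were adjusted by Benjamini-Hochberg at 0.05. Counting limits and floors cover counting error only. Python 3.11.15, numpy 2.4.6, pandas 2.3.3 and scipy 1.17.1 were used.

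The members, gene lists, tests and naming rule were chosen with earlier results of these data known. The rule named the 6 widest members, the 6 largest rises and 3 lowest changes of each mark, the 5 strongest members at 25 mM, up to 4 of each list by width, and 3 on either side of 2000 bp. A largest rise had to pass the test, with groups that did not overlap and 10 or more reads in every library at 25 mM. A further promoter that the rule names is not reported here, though it stays in the counts. Within a mark, deviations of libraries with the same number had correlations of -0.08 to 0.05, and the main fits have no replicate block. The few reads of H3K18La at 5 mM could hide a pairing. Whether the numbers pair the glucose groups is therefore unknown. Across marks, libraries with the same number had correlations of 0.417 and 0.166 at 25 mM and -0.0829 and -0.0383 at 5 mM over members, and the interaction fit takes them as independent. Alternatives were other pseudocounts (0.1 and 1), a minimum mean RPKM of 1, a threshold of 0.01, other moderation, voom, other scalings, a replicate block and leaving out each library.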

Additional observations from a re-analysis of the deposited data

How the results depend on the processing

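Of 83 alternatives of the main results, 22 moved, a count by over 1.5 times or a value by over 1 SD between replicates. None of the values changed sign, and counts could not be labelled as reversed. Of the other 61, 19 were counts of 0 for the interaction, which have no direction to keep. The 366 members called for H3K18La became 199 at a threshold of 0.01, 639 with voom on recovered reads, 95 after centring on the median of all peaks, 0 with the reads in peaks as the total, and 198 to 344 when each library was left out in turn. Pseudocounts, the low-value filter and plain moderation gave 350 to 428. The 555 called for H3K27Ac became 1 at a threshold of 0.01 (all peaks 0.079%) and 225 after centring (23.8%, all peaks 4.75%). They became 0 with a pseudocount of 0.1, without robust moderation and with the reads in peaks as the total, settings that called 0 of all peaks. Fits without any 1 H3K27Ac library leave a lone library in a group, assumed to vary like the others, and say nothing of stability. With a replicate block, the counts were 318 for H3K18La and 211 for H3K27Ac. The labels do not say whether the numbers pair the samples, so calls lost under the block are not read either way. The interaction passed at 0 members under each setting.

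The median H3K18La change of 1.15 became 1.50 with a pseudocount of 0.1, 0.52 after centring and 0.10 with the reads in peaks as the total (0.99 to 1.29 without each library), and the H3K27Ac median of 1.38 became 0.94 and 0.21 under those scalings (1.12 to 1.66 without each library). Centring took the median of all peaks to 0.13 and 0.14, and the reads in peaks took it to -0.07 and -0.29. The H3K18La broad minus narrow difference of 0.32 was 0.22 with a pseudocount of 0.1 and 0.28 to 0.35 without each library, and that of H3K27Ac, 0.19, was 0.14 to 0.25. The causes were not tested. Of 76 named promoter peaks, 48 were called for H3K18La and 57 for H3K27Ac, and 0 for either mark with the reads in peaks as the total, where 17 and 14 changed sign. A quasi-likelihood count model was not run. H3K18La at 5 mM, with a median of 3 to 13 reads per member, limits single promoters, and 2 libraries per group limit H3K27Ac.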
